A study of Mus musculus with 10 samples.

Results

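Small RNA of CD43- splenic B-cells was compared between mice lacking Eµ and mice lacking the 3'RR, with and without LPS. Eµ is the intronic enhancer at the 5′ end of the constant genes of Igh, the immunoglobulin heavy chain locus, and the 3'RR is the regulatory region at its 3′ end. The comparison used 6 of the 10 libraries of the series: 1 Eµ-deficient and 2 3'RR-deficient libraries of non-stimulated (NS) cells, and 1 Eµ-deficient and 2 3'RR-deficient libraries of cells given LPS at 5 µg per ml. Per the labels all cells were cultured for 2 days. The members were chosen by their labels alone, and all 6968 rows of the count table entered, whatever their class. The Eµ-deficient mice lack the enhancer together with its flanking matrix attachment regions (EµMAR-deficient), and per the study's methods both mutants were on the same inbred background as the wt mice and were adult animals of both sexes. Cells of 2 mice were pooled for each library, so that a library stands for a pool and not for an animal. The Eµ-deficient genotype has 1 library per condition, and a difference of that pool from the others cannot be told apart from a difference of the genotype. The 4 wt libraries are given as a reference range only.

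MicroRNAs are cut from hairpin precursors and pair with messenger RNAs through a seed at their 5′ end. Genes that share a seed are counted as a family. Besides microRNAs, size-selected small RNA libraries also hold fragments of tRNAs, of snoRNAs (guides for chemical changes of ribosomal RNA, many of them cut from introns of ribosomal protein and translation factor genes), of snRNAs and of Y RNAs. In B-cells, miR-150 and miR-181a are abundant at different stages, the miR-142 arms are expressed throughout the blood lineages, and miR-155 is known to be induced by activation.

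Total counts were 13503229 and 18144016 in the Eµ-deficient libraries (NS and LPS) and ranged from 3756662 to 13859730 in the 3'RR-deficient ones. The 3'RR-deficient library NS2 was the shallowest of the 6 and stood apart from its replicate NS1. Its rRNA share was 0.266% of counts against 0.00743% in NS1, and the summed level of 7 lymphocyte microRNAs was 90635 CPM (counts scaled to a common library size) against 365005 CPM. The log2 differences between NS1 and NS2 over all tested rows had an SD of 1.27, and those between LPS1 and LPS2 an SD of 0.95.

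Sequences of microRNAs that passed the test are shown 5′ to 3′, with the seed (bases 2 to 8) in capitals. Mature sequences are from RefSeq (GRCm38.p6). The first set holds microRNAs that passed the test as higher in Eµ-deficient cells, grouped by seed. The pairs miR-99a-5p and miR-100-5p, and miR-125a-5p and miR-125b-5p, have a common seed each.
miR-99a-5p (chr16:77598940-77598961, plus strand, intron of Mir99ahg): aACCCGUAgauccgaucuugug
miR-100-5p (chr9:41531437-41531458, plus strand, intron of 3110039I08Rik): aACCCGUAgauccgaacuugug
miR-125a-5p (chr17:17830817-17830840, plus strand, within a Spaca6 exon): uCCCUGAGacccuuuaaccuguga
miR-125b-5p (chr9:41581940-41581961, plus strand, intron of 3110039I08Rik): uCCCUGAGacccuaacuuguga
miR-199a-3p (chr9:21496498-21496519, minus strand, intergenic): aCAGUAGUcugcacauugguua
miR-31-5p (chr4:88910614-88910635, minus strand, exon of AL805899.1): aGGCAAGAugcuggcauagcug
miR-335-5p (chr6:30741314-30741336, plus strand, intron of Mest): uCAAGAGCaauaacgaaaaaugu

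The second set comes from the imprinted microRNA cluster of chromosome 12, in the order of the chromosome. Of those shown, miR-493-5p, miR-370-3p, miR-654-3p and miR-381-3p met the filter on low counts only through the Eµ-deficient libraries. They entered the test because they were high there. No seed was shared among these members.
miR-493-5p (chr12:109580243-109580261, plus strand): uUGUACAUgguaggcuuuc
miR-127-3p (chr12:109592888-109592909, plus strand): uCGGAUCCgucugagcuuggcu
miR-370-3p (chr12:109618305-109618326, plus strand, intron of Rian): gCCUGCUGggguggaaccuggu
miR-654-3p (chr12:109723270-109723291, plus strand): uAUGUCUGcugaccaucaccuu
miR-381-3p (chr12:109726870-109726891, plus strand): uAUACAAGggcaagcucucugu
miR-409-3p (chr12:109743204-109743225, plus strand, intron of Mirg): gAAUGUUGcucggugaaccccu
miR-369-3p (chr12:109743466-109743486, plus strand, intron of Mirg): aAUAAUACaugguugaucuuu

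The third set holds the 4 mature microRNAs that passed the test as lower in Eµ-deficient cells. Of these, only miR-455-3p also met the filter on low counts in the Eµ-deficient libraries.
miR-455-3p (chr4:63256904-63256924, plus strand, intron of Col27a1): gCAGUCCAcgggcauauacac
miR-7688-5p (chr10:93433107-93433129, plus strand): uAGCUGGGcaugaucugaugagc
miR-504-5p (chrX:59097705-59097726, minus strand, intron of Fgf13): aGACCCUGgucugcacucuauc
miR-542-5p (chrX:53049453-53049474, minus strand): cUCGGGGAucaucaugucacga

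With stimulation as an additive term, 127 of the 4081 tested rows (3.11%) differed between the genotypes. Of these, 121 (2.96%) were higher and 6 (0.147%) lower in Eµ-deficient cells. The test was edgeR's quasi-likelihood test with Benjamini-Hochberg adjustment over the 4081 rows and a threshold of 0.05, and all adjusted p-values below are from it. The log2 difference given for a feature is the log2 fold change of Eµ-deficient over 3'RR-deficient cells in that fit, ± its SE. Without adjustment 473 rows were below 0.05. In all 127 rows the Eµ-deficient library lay outside both 3'RR-deficient libraries in NS and again in LPS. That alone was not rare, since 17% of tested rows lay above and 13.5% below in both conditions. Of the tested rows, 271 met the filter on low counts only through the Eµ-deficient libraries, and 14 of the rows that passed are among them (8 mature microRNAs and 6 snoRNAs). Such rows entered because they were high in those libraries. In the other direction, 5 of the 6 lower rows met the filter only through the 3'RR-deficient libraries. These were miR-7688-5p, miR-542-5p, miR-504-5p, the snoRNA ENSMUST00000158841 and the hairpin ENSMUST00000157994. The median log2 fold change of all tested rows was -0.10, and scaling by total counts moved it to -0.30.

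The number of calls rested on single libraries. No row passed without the Eµ-deficient LPS library, without the 3'RR-deficient library NS1 or without LPS1, and 380, 388 and 434 rows were then below 0.05 unadjusted. Without the Eµ-deficient NS library 11 rows passed, and without the 3'RR-deficient library LPS2 there were 55. Without NS2, the library that stood apart, 248 passed, of which 220 were higher and 28 lower in Eµ-deficient cells, and 126 of the 127 rows were among them. DESeq2 called 235. Refits were followed for 44 of the rows that passed, most of them described below. Of these, 16 passed in every other fit that left out no library and had no block across conditions: miR-100-5p, miR-99a-5p, miR-31-5p, miR-7688-5p, Mir451a, Gm25732, Snord45b, Snord72, Snord80, ENSMUST00000158841, chr11.tRNA205-GlyACC, chr17.tRNA391-ValCAC, piRNAclusterDB_1874, piRNAclusterDB_2006, Rmrp and ENSMUST00000157750. The other 28 missed the threshold in at least 1 of those fits. The number of such fits differed between rows, with 13 for miR-100-5p, 10 for Snord72 and 9 for ENSMUST00000158841. Fits of microRNAs alone do not hold the other classes, and the 10 CPM filter drops rows at low levels. The list is therefore not a like-for-like ranking.
Within a condition, libraries with the same number deviated together across genotypes: over the 4081 rows the differences between numbers 2 and 1 in 3'RR-deficient cells correlated with those in wt cells at r = 0.67 in NS and 0.36 in LPS, and both NS libraries numbered 2 were high in rRNA (0.266% and 0.347% of counts, against at most 0.0126% in the NS libraries numbered 1). Both Eµ-deficient libraries are numbered 1. A replicate block within condition compares them with the 3'RR-deficient libraries numbered 1 and leaves 1 residual degree of freedom. With it 472 rows passed, 327 higher and 145 lower in Eµ-deficient cells, and all 127 rows were among them. The spread behind these p-values is how far the genotype difference varied between NS and LPS, not the spread between replicate libraries. With all 10 libraries and this block, a fit added after seeing the data, 324 passed (264 higher and 60 lower, 124 of the 127 among them).

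The classes of small RNA differed in how many rows passed, where 3.11% of all 4081 tested rows did. Among mature microRNAs 22 of 634 tested were higher and 4 lower, and among hairpin transcripts 12 of 123 were higher and 1 lower. Among snoRNAs 39 of 291 were higher and 1 lower, with a median log2 fold change of 1.08. All 24 of 422 tRNA genes, 12 of 2252 piRNA clusters, 9 of 73 misc RNAs and 3 of 198 snRNAs that passed were higher in Eµ-deficient cells. None of the 85 tested rRNA rows passed. Their median log2 fold change was -0.56, and it was 0.56 without NS2, the library high in rRNA, 0.48 without the Eµ-deficient NS library and 0.55 with the block within condition. Other settings moved it further down, to -2.14 without the Eµ-deficient LPS library, -1.11 without LPS2, -1.17 without a filter and -1.21 with a 10 CPM filter.

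**Figure D1:**
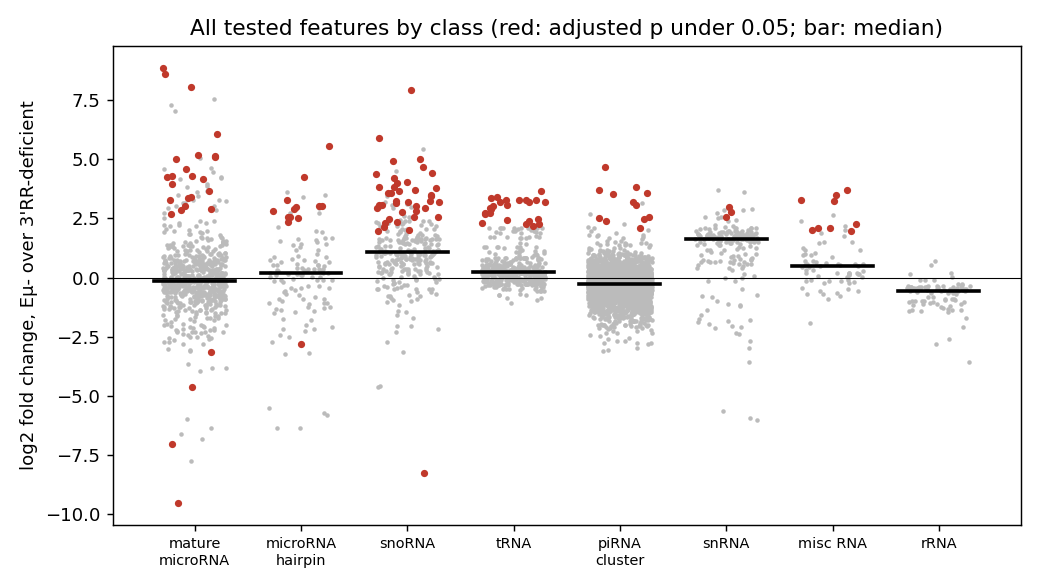
Log2 fold change of Eµ-deficient over 3'RR-deficient cells for all tested features, by class; red points had an adjusted p under 0.05 and black bars are class medians. The snoRNA median lies at 1.08 and the mature microRNA median at -0.15. Over the refits the latter ranged from -0.38 with a replicate block across conditions to 0.24 without the 3'RR-deficient library NS1.

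The microRNA class took 60.2% of counts in the Eµ-deficient NS library (Wilson 95% interval 60.19 to 60.24) and 51.4% in the LPS library (51.38 to 51.43). In 3'RR-deficient cells it took 74.2% ± 9.54 (SD, n = 2) in NS and 73.6% ± 3.31 (SD, n = 2) in LPS. Both Eµ-deficient libraries were below both 3'RR-deficient libraries of their condition, by 18.1 percentage points on average. The exact two-sided permutation test within condition has 9 assignments and gave p = 0.111, the smallest it can give, with 0.259 after adjustment over the 7 classes compared. The misc RNA share was 0.763% and 0.723% in Eµ-deficient cells and at most 0.346% in 3'RR-deficient cells, and the piRNA cluster share was 17.5% and 17.6% against a mean of 10.8% in each condition, each with the same smallest p. The snoRNA share was 10.5% and 9.61%, against 4.51% ± 2.14 (SD, n = 2) in NS and 5.39% ± 2.71 (SD, n = 2) in LPS (exact p = 0.222). Intervals cover counting error only, since amplified reads are not independent molecules.

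**Figure D2:**
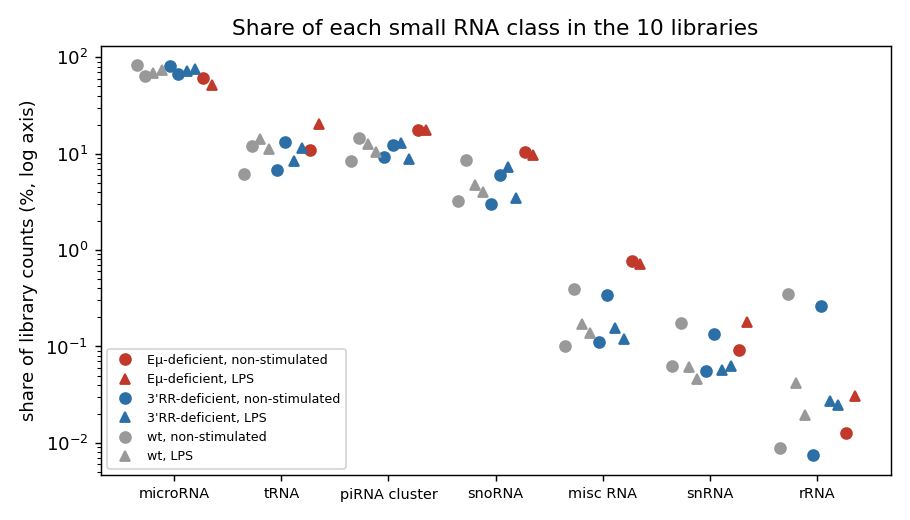
Share of library counts (log axis) taken by each small RNA class, 1 point per library, with wt libraries in grey. In the microRNA class both Eµ-deficient points (60.2% and 51.4%) lie lowest, and in the misc RNA class they lie highest (0.763% and 0.723%).

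Among mature microRNAs with at least 100 CPM in a genotype, 5 were higher in Eµ-deficient cells: miR-100-5p, miR-99a-5p, miR-143-3p, miR-125a-5p and miR-125b-5p. The miR-99/100 and miR-125 families lie in common clusters with let-7 genes and are known from haematopoietic progenitors and many non-lymphoid tissues. miR-143-3p is typical of smooth muscle and stromal cells.

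miR-100-5p was at 338 CPM in NS and 143 CPM in LPS in Eµ-deficient cells, and at 53.6 and 26.5 CPM (NS1 and NS2) and 6.76 and 4.11 CPM (LPS1 and LPS2) in 3'RR-deficient cells. Over both conditions its log2 difference was 3.96 ± 0.57 (adjusted p = 0.0098). Both Eµ-deficient libraries were above all 4 3'RR-deficient libraries, and the 4 wt libraries ranged from 7.69 to 91.3 CPM.
miR-99a-5p, which has the same seed, was at 371 and 116 CPM against 67.5, 29.2, 7.09 and 4.63 CPM in the same order. Its log2 difference was 3.67 ± 0.55 (adjusted p = 0.00995), and again no 3'RR-deficient library reached either Eµ-deficient one.

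miR-125a-5p was at 426 CPM in NS and 73.0 CPM in LPS, against 69.1 and 108 CPM in NS and 10.2 and 3.41 CPM in LPS in 3'RR-deficient cells. Its log2 difference was 2.88 ± 0.57 (adjusted p = 0.0265). The Eµ-deficient LPS library lay within the range of the 3'RR-deficient NS libraries, so the separation held only within a condition. The call for miR-125a-5p was lost in the microRNA class alone (adjusted p = 0.0723), among mature microRNAs alone (0.0879), with the GC correction (0.0598), with a required 2-fold change (0.0849) and without any library but NS2 (0.0576 to 0.431).
miR-125b-5p was at 293 and 62.6 CPM against 64.8, 80.2, 7.92 and 2.55 CPM, with a log2 difference of 2.87 ± 0.59 (adjusted p = 0.0331). For miR-125b-5p the log2 fold change was 2.02 without the Eµ-deficient LPS library (0.504) and 3.59 without the NS library (0.138), and the call was also lost with a 10 CPM filter (0.0549), in the microRNA class alone (0.0757), among mature microRNAs alone (0.0879), with the GC correction (0.0598) and with a required 2-fold change (0.0984). Of the 3 tested microRNAs with the miR-125 seed, miR-351-5p did not pass, and of the 3 with the miR-99/100 seed miR-99b-5p did not pass.

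miR-143-3p was at 514 and 411 CPM in Eµ-deficient cells, against 174 and 153 CPM in NS and 22.6 and 11.2 CPM in LPS in 3'RR-deficient cells. The log2 difference was 3.38 ± 0.72 (adjusted p = 0.0388). The wt libraries ranged from 7.14 to 804 CPM, so a wt library exceeded both Eµ-deficient ones. The size of the miR-143-3p difference rested on the Eµ-deficient LPS library: without it the log2 fold change was 1.65 (adjusted p = 0.602), and without the Eµ-deficient NS library 4.60 (0.0577). It also missed the threshold without NS1, LPS1 or LPS2 (0.145 to 0.202), with DESeq2 size factors (0.0595), a 10 CPM filter (0.0575), all 10 libraries (0.0652) and the microRNA class alone (0.0757).

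**Figure D3:**
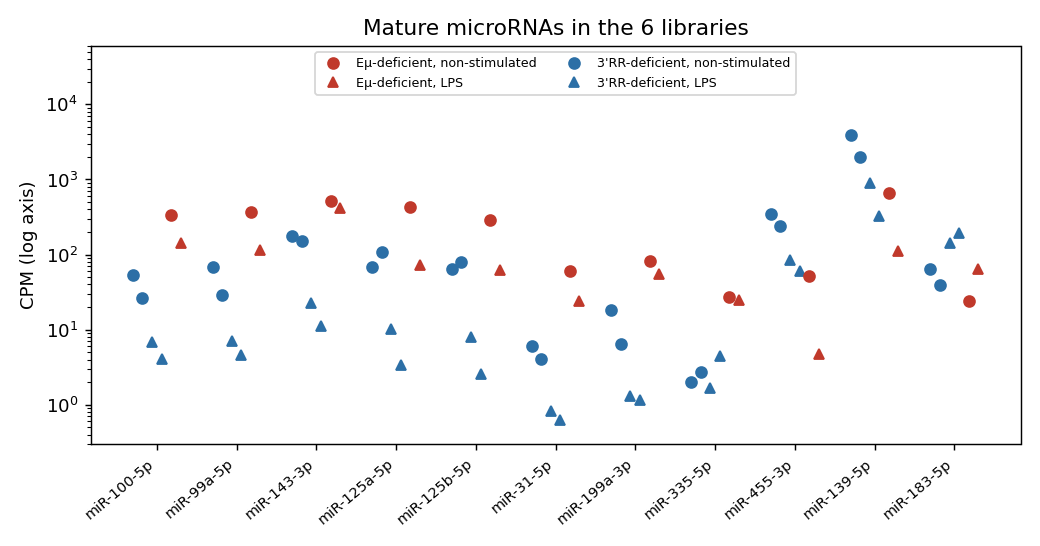
CPM (log axis) of 11 mature microRNAs in each of the 6 libraries, circles for non-stimulated and triangles for LPS. For the first 8, Eµ-deficient libraries (red) lie above both 3'RR-deficient libraries (blue) of the same condition, as for miR-31-5p with 60.2 and 23.7 CPM against at most 5.99 CPM; for the last 3 they lie below.

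Further mature microRNAs passed at lower levels, and those in this paragraph were chosen after their values were seen. miR-31-5p, a microRNA widely expressed in mesenchymal and epithelial cells, was at 60.2 and 23.7 CPM against 5.99, 4.04, 0.825 and 0.637 CPM (log2 difference 4.30 ± 0.50, adjusted p = 0.00962). miR-335-5p, located in an intron of the imprinted gene Mest, was at 27.4 and 25.2 CPM against 2.00, 2.69, 1.65 and 4.46 CPM (log2 difference 3.27 ± 0.50, adjusted p = 0.00995). Its levels were alike in NS and LPS in the Eµ-deficient libraries, whereas those of miR-31-5p were lower in LPS.
miR-199a-3p was at 83.2 and 55.1 CPM against 18.4, 6.54, 1.32 and 1.16 CPM (log2 difference 4.24 ± 0.71, adjusted p = 0.0132). miR-199b-3p has the identical sequence, and its count was the miR-199a-3p count divided by 2 in all 10 libraries, so these rows are 1 measurement. The 5p arms miR-199a-5p and miR-199b-5p, which differ in sequence, had log2 fold changes of 4.60 and 5.02 at no more than 9.18 CPM in any of the 6 libraries. Both met the filter only through the Eµ-deficient libraries, so their calls add nothing to that of miR-199a-3p.
miR-511-3p, from an intron of the macrophage mannose receptor gene Mrc1, was at 38.7 CPM in the Eµ-deficient NS library against 8.45 and 6.35 CPM, and at 0.624 CPM in LPS against 0 and 0.0579 CPM (log2 difference 2.69 ± 0.55, adjusted p = 0.0331). The call for miR-511-3p was lost with scaling by total counts (0.187), and that for miR-335-5p with the GC correction (0.36).

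Markers of other cell types in the same libraries moved partly in the same direction. Of 7 microRNAs listed for stromal and endothelial cells, miR-199a-5p and miR-214-3p met the filter on low counts only through the Eµ-deficient libraries. Of the 5 others, 2 were higher in Eµ-deficient cells (miR-143-3p and miR-199a-3p), where 2.96% of all tested rows were, and 3 lay above both 3'RR-deficient libraries in both conditions, where 17% of all tested rows did. The summed level of the 7 was 736 and 504 CPM in Eµ-deficient cells, 269 and 201 CPM in 3'RR-deficient NS cells and 54.4 and 41.8 CPM in LPS cells, with wt between 44.1 and 997 CPM. The endothelial microRNA miR-126a-3p of that list was at 74.1 and 6.99 CPM against 60.5, 25.8, 27.5 and 23.5 CPM.

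None of the 5 erythroid microRNAs passed, with a median log2 fold change of 1.47. All 5 had a log2 fold change above 0. Of them, 3 lay above both 3'RR-deficient libraries in both conditions, where 17% of all tested rows did. The summed level of the 5 was 14833 and 2603 CPM against 5362 and 8359 CPM in NS and 1138 and 265 CPM in LPS. miR-451a, the main microRNA of red cells, was at 5300 and 1261 CPM against 2040, 239, 421 and 114 CPM (log2 difference 2.23 ± 0.79, adjusted p = 0.262). Neither myeloid arm passed: miR-223-3p, the defining microRNA of granulocytes, was at 5799 and 252 CPM against 1670, 654, 72.7 and 43.2 CPM (log2 difference 2.22 ± 0.54, adjusted p = 0.0606). Of the 5 epithelial and liver microRNAs none passed (median log2 fold change -0.28), and the hepatocyte microRNA miR-122-5p had 0 and 9 counts in the Eµ-deficient libraries. No marker list member was at 0 in all 6 libraries, and the part of other cell types in the differences was not tested.

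The cluster of imprinted microRNAs on chromosome 12, known as the Dlk1-Dio3 domain and expressed from the maternal allele, held all 9 calls near Igh. It was singled out after its values were seen, within the list of all rows up to 10 Mb from the constant genes of Igh. The table holds 75 mature microRNAs between chr12:109563710 and 109747949, which lie 3.51 to 3.69 Mb from the constant region. Of these, 31 passed the filter on low counts and 9 were higher in Eµ-deficient cells, where 2.96% of all tested rows were. For 22 of the 31 the filter was met only through the Eµ-deficient libraries, against 6.64% of all tested rows, so these members entered because they were high there, and 6 of the 9 are among them. Of the 9 that also met it in 3'RR-deficient cells, 3 passed the test (miR-127-3p, miR-369-3p and miR-409-3p), miR-379-5p, miR-411-5p, miR-494-3p and miR-382-5p had log2 fold changes from 1.40 to 3.02 and did not pass, and miR-434-3p and miR-541-5p were below 0. Over the whole table, 3810 tested rows met the filter in 3'RR-deficient cells, and 113 of them passed. None of the 11 other microRNA rows or of the 17 rows of other classes within 10 Mb passed.

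The whole cluster was weakly represented. Summed over the 75 members there were 1546 and 3014 counts in the Eµ-deficient libraries and 192, 229, 83 and 83 counts in the 3'RR-deficient ones (NS1, NS2, LPS1 and LPS2). In CPM of the microRNA class alone (counts over the total of that class) this was 190 and 323 against 19.9, 90.4, 19.3 and 7.89, and between 14.1 and 42.7 in wt. A count was found for 54 and 65 of the 75 members in the Eµ-deficient libraries and for 18 to 23 in the 3'RR-deficient ones.

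miR-127-3p, at the maternally expressed antisense partner of Rtl1, had 157 and 211 counts in Eµ-deficient cells and 22, 18, 1 and 11 in 3'RR-deficient cells (log2 difference 3.40 ± 0.59, adjusted p = 0.0151). miR-369-3p had 159 and 374 counts against 14, 5, 2 and 0 (log2 difference 5.13 ± 0.91, adjusted p = 0.0163). miR-409-3p, its neighbour in the Mirg transcript, had 150 and 299 counts against 16, 3, 1 and 0 (log2 difference 5.17 ± 0.96, adjusted p = 0.0201). In these 3 the Eµ-deficient libraries were above every 3'RR-deficient library.
miR-487b-3p had 107 and 224 counts against 0, 5, 4 and 0 (adjusted p = 0.0295), and miR-493-5p had 83 and 154 counts against 4, 4, 4 and 0 (adjusted p = 0.03). miR-370-3p, from an intron of Rian, had 48 and 69 counts against 2 counts in all 4 3'RR-deficient libraries together (adjusted p = 0.0132). miR-487b-3p, miR-493-5p and miR-370-3p met the filter on low counts only through the Eµ-deficient libraries, as did miR-654-3p, miR-376c-3p and miR-381-3p.
For miR-654-3p, miR-376c-3p and miR-381-3p all 4 3'RR-deficient libraries were at 0. With 3 counts assumed in each of those libraries, their mean CPM was at least 12.5-fold, 9.79-fold and 7.95-fold higher in Eµ-deficient cells.
Members that went the other way were miR-434-3p, with 14 and 3 counts against 17, 31, 1 and 3, and miR-541-5p, with 34 and 5 counts against 18, 23, 5 and 7. Neither passed.
Without the 3'RR-deficient library NS2, 18 members passed, where 248 of all 3921 tested rows did. Without LPS2, 2 members passed, where 55 of 3848 rows did, and without NS1 or LPS1 no row of any class passed. How many of these members met the filter only through the Eµ-deficient libraries was not counted for these fits. In a fit of the microRNA class alone 4 members passed, where 19 of 766 rows did. In a fit of mature microRNAs alone no member passed, where 8 of 642 rows did.

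**Figure D4:**
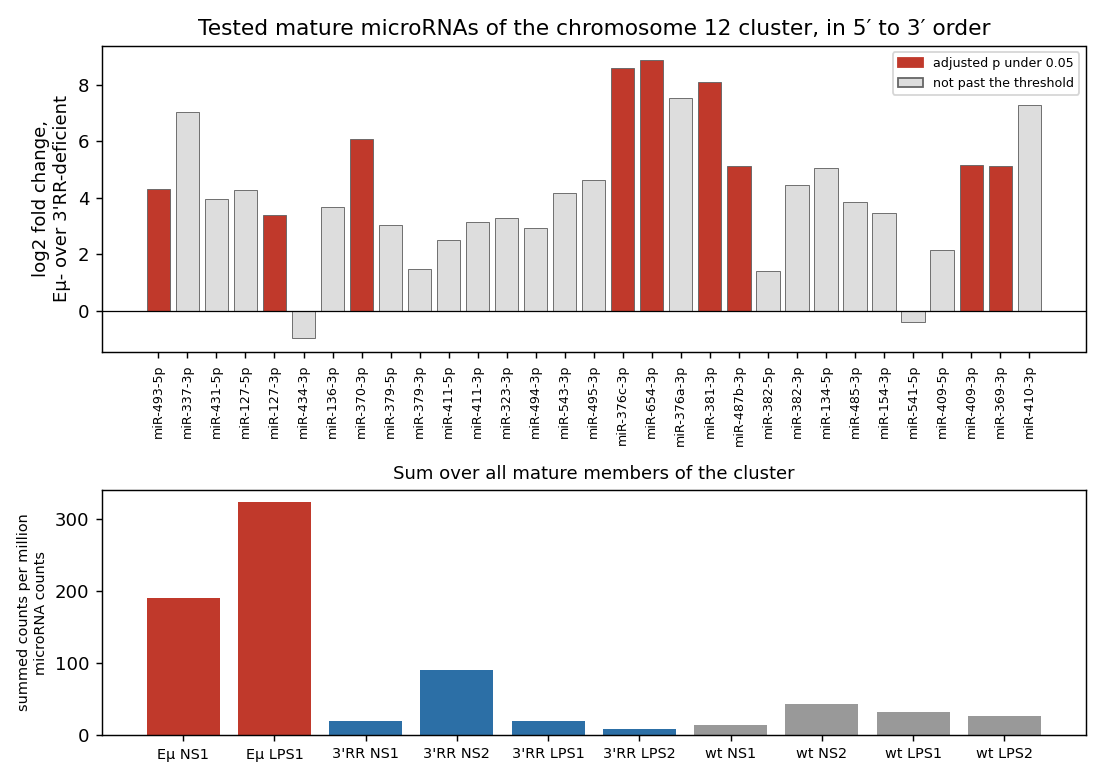
Top, log2 fold change (Eµ-deficient over 3'RR-deficient) of the 31 tested mature microRNAs of the cluster in chromosome order, red where the adjusted p was under 0.05; 29 bars point up, and 22 of the 31 members met the filter on low counts only through the Eµ-deficient libraries. Bottom, summed counts of all 75 members as CPM of the microRNA class in each library, with 190 and 323 in the Eµ-deficient and at most 90.4 in the other libraries.

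At the Igh locus itself the signal was near the detection limit. The 3 hairpin transcripts annotated in the switch mu region (chr12:113424645-113425227, minus strand, just upstream of Ighm) had 0 CPM in the Eµ-deficient NS library. In LPS they had 1.16 CPM (Gm25747), 0.534 CPM (Gm24022) and 1.34 CPM (Gm22175). The highest value in a 3'RR-deficient library was 1.48 CPM. Of the 2 that were tested, neither passed (adjusted p = 0.965 and 0.98), and a difference was not detectable at this depth.
miR-5121, which overlaps an exon of Rpl13a, was at 8.27 and 60.0 CPM in Eµ-deficient cells and at 13.4, 6.15, 206 and 78.1 CPM in 3'RR-deficient cells (log2 difference -0.73 ± 0.60, adjusted p = 0.734). The wt libraries ranged from 61.1 to 1815 CPM, so each of them exceeded the NS libraries of both genotypes.

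Of the microRNAs lower in Eµ-deficient cells, 1 reached 100 CPM. miR-455-3p, from an intron of the collagen gene Col27a1 and known from cartilage, was at 51.7 and 4.72 CPM, against 348 and 237 CPM in NS and 83.9 and 61.3 CPM in LPS in 3'RR-deficient cells. The log2 difference was -3.16 ± 0.61 (adjusted p = 0.0242). The Eµ-deficient libraries were the lowest of their condition, and the wt libraries ranged from 9.95 to 101 CPM, so the 3'RR-deficient NS libraries were above all wt libraries. The call for miR-455-3p was lost without NS1, LPS1 or LPS2 (adjusted p = 0.0564 to 0.121) and with a required 2-fold change (0.0612). Its log2 fold change was -2.50 without the Eµ-deficient LPS library and -3.95 without the NS library.
The next by p did not pass in this fit. miR-139-5p was at 663 and 111 CPM against 3865, 2012, 906 and 327 CPM (log2 difference -2.31 ± 0.66, adjusted p = 0.115), below every 3'RR-deficient library of its condition. It passed as lower with DESeq2 (adjusted p = 0.00318), with scaling by total counts (0.0267), without a filter (0.0304), with all 10 libraries (0.0422) and without NS2 (0.0222). It also passed with the block within condition, on 1 residual degree of freedom (log2 fold change -2.79), and with that block in all 10 libraries (adjusted p = 0.000431). Its log2 fold change lay between -2.79 and -1.95 in all refits. miR-183-5p, of the sensory organ cluster that is also induced in activated lymphocytes, was at 24.3 and 63.3 CPM against 63.8, 39.8, 141 and 193 CPM (log2 difference -1.25 ± 0.49, adjusted p = 0.342). With the block within condition, on 1 residual degree of freedom, it passed (adjusted p = 0.00369), and with all 10 libraries and that block it did not (0.0943).
At lower levels 3 more passed and were chosen after their values were seen. All 3 met the filter on low counts only through the 3'RR-deficient libraries, so they entered because they were high there. miR-7688-5p had 0 CPM in both Eµ-deficient libraries against 2.92, 2.69, 13.2 and 8.39 CPM in 3'RR-deficient cells. With 3 counts assumed per Eµ-deficient library, the latter were at least 27.3-fold higher. miR-542-5p was also at 0 in both, against 7.68, 3.46, 0.330 and 0.116 CPM (at least 11.6-fold). miR-504-5p, from an intron of Fgf13, was at 0.122 and 0.312 CPM against 20.1, 10.2, 5.61 and 1.85 CPM (log2 difference -4.63 ± 0.94, adjusted p = 0.0311).

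None of the 7 lymphocyte microRNAs passed in the fit without a block, and the libraries of both genotypes held all of them. miR-155-5p was at 9489 CPM in NS and 51268 CPM in LPS in Eµ-deficient cells, against 8116 and 4038 CPM in NS and 36588 and 18506 CPM in LPS in 3'RR-deficient cells (log2 difference 0.77 ± 0.61, adjusted p = 0.713). It was the only 1 of the 7 above both 3'RR-deficient libraries in both conditions, and was higher in LPS than in NS in every library of either genotype.
miR-150-5p, which marks resting mature lymphocytes, was at 25333 and 4608 CPM against 55666, 33479, 7536 and 4007 CPM (log2 difference -0.57 ± 0.63, adjusted p = 0.833). With the block within condition, on 1 residual degree of freedom, miR-150-5p passed as lower in Eµ-deficient cells (log2 fold change -0.92, adjusted p = 0.0368). With all 10 libraries and that block it did not (-0.84, adjusted p = 0.137). miR-181a-5p was at 21713 and 4264 CPM against 34384, 30049, 6797 and 3498 CPM (log2 difference -0.42 ± 0.60). For both, Eµ-deficient cells were below both 3'RR-deficient libraries in NS and between them in LPS.
In the 4 other members NS2 was the lowest of the 3'RR-deficient libraries. miR-142a-5p was at 45561 and 16869 CPM against 98788, 4022, 35146 and 30431 CPM (log2 difference -0.55 ± 1.02), and miR-142a-3p at 3251 and 1560 CPM against 3884, 152, 1530 and 4618 CPM (log2 difference -0.06 ± 1.06). miR-21a-5p was at 61053 and 64335 CPM against 112033, 9081, 129337 and 211095 CPM (log2 difference -0.64 ± 0.99).
miR-146a-5p, a brake on Toll-like receptor signalling, was at 63490 CPM against 52134 and 9814 CPM in NS and at 22436 CPM against 33656 and 27656 CPM in LPS (log2 difference 0.36 ± 0.79).

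No member of the microRNA families counted as lists passed. The medians of log2 fold change were -0.34 for the 20 tested members of miR-17-92 and its paralogues, -0.41 for the 10 of let-7 and miR-98, -0.29 for the 6 of the miR-15/16 family and -0.51 for the 5 of the miR-30 family. They were -0.25 for the 4 of miR-181, -0.16 for the 5 of miR-23/27/24 and 0.35 for the 3 of miR-29. All 10 let-7 members had a log2 fold change below 0, where 1857 of the 4081 tested rows were above 0, and 3 of them lay below both 3'RR-deficient libraries in both conditions, against 13.5% of all tested rows. Members of a family share sequence and clusters and are not independent.

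Hairpin rows hold reads assigned to the precursor, and how these were kept apart from reads of the mature arms is not given in the sources used here. Mir451a, the precursor of miR-451a that is cut by Argonaute 2 and not by Dicer, had the smallest p of all rows. It was at 513 and 10.7 CPM in Eµ-deficient cells, against 14.8, 9.04, 0.330 and 0.116 CPM in 3'RR-deficient cells (log2 difference 5.55 ± 0.54, adjusted p = 0.00792). Its Eµ-deficient NS library stood far above every other library, with 96.9 hairpin counts per 1000 mature miR-451a counts against 7.23 and 37.9 in 3'RR-deficient NS cells. In LPS the ratio was 8.52 against 0.784 and 1.01. The precursor is printed with its mature microRNA to show which part of it is kept (GENCODE M21, GRCm38, chr11:78073170-78073241, plus strand).
Mir451a precursor: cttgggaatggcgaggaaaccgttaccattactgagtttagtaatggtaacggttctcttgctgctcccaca
miR-451a (chr11:78073186-78073207, plus strand, seed in capitals): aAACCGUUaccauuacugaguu

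Of the 4 tested hairpin rows that span an arm of the 7 lymphocyte microRNAs, 2 passed, and they were chosen after their values were seen. The others were Mir21a (log2 fold change -0.17, adjusted p = 0.934) and Mir146 (1.00, adjusted p = 0.811). The Mir155 hairpin was at 6.32 and 35.1 CPM against 0.461, 0.577, 8.25 and 3.47 CPM (log2 difference 3.02 ± 0.53, adjusted p = 0.016). Per 1000 counts of its mature arms the hairpin had 0.666 and 0.683 counts in Eµ-deficient cells and 0.0567 to 0.224 in 3'RR-deficient cells, while the wt libraries spread from 0.0451 to 1.05. The row annotated Mir142b, at the position of the miR-142a arms, was at 59.7 and 57.1 CPM against 7.84, 3.08, 13.7 and 9.49 CPM (log2 difference 2.90 ± 0.52, adjusted p = 0.0163).
Of the remaining hairpins that passed, Gm25732 was the strongest, at 284 and 170 CPM against 6.91, 10.6, 26.1 and 6.94 CPM (log2 difference 4.26 ± 0.65, adjusted p = 0.00995). The single hairpin that was lower, ENSMUST00000157994, was at 0.122 and 1.87 CPM against 1.38, 2.31, 11.7 and 9.55 CPM (log2 fold change -2.82).

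snoRNAs gave the most calls of any class, with 40 of 291 rows, 39 of them higher in Eµ-deficient cells, where 3.11% of all tested rows passed. Of the higher ones, Gm24533, Gm22053, Gm26286, Gm25273, Gm25777 and ENSMUST00000158327 met the filter on low counts only through the Eµ-deficient libraries. Of the 291 tested snoRNAs, 241 had a log2 fold change above 0, against 1857 of all 4081 tested rows. In both conditions 156 lay above and 13 below both 3'RR-deficient libraries, against 17% and 13.5% of all tested rows. Among those named Snord (box C/D, guides for ribose methylation) 13 of 55 were higher, with a median of 1.67. Among those named Snora or Scarna (mostly box H/ACA, guides for pseudouridylation) 3 of 36 were higher, with a median of 0.70. Of all tested rows 2.96% were higher.
The letters TGATG (C box) within the first 20 bases together with CTGA (D box) within the last 20 bases, on the transcript strand, were found in 20 of the 36 higher snoRNAs that have a GENCODE sequence, in 35.6% of the 275 tested snoRNAs with one, and in 18.9% of all 645 snoRNA rows with one. The pair with the largest increase among those with at least 100 CPM in a genotype is shown with these letters in capitals (GENCODE M21, GRCm38).
Snord72 (chr15:5118404-5118484, plus strand, intron of Rpl37): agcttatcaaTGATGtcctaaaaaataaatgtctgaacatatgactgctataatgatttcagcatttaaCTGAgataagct
Snord45b (chr3:153910563-153910633, minus strand, within Rabggtb): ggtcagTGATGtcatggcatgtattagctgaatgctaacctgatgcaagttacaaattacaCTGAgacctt

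Snord45b was at 1774 and 544 CPM in Eµ-deficient cells, against 52.7 and 8.65 CPM in NS and 33.0 and 35.1 CPM in LPS in 3'RR-deficient cells (log2 difference 5.02 ± 0.76, adjusted p = 0.00995). Snord72 was at 4524 and 980 CPM against 193, 63.5, 41.6 and 31.9 CPM (log2 difference 4.94 ± 0.58, adjusted p = 0.00962). For both, the lower Eµ-deficient library was above the highest of the 3'RR-deficient and the wt libraries, whose maxima were 107 and 119 CPM in wt. Snord80, in the multi-snoRNA host Gas5 and chosen after its values were seen, was at 7666 and 2651 CPM against 457, 335, 253 and 287 CPM (log2 difference 3.81 ± 0.51, adjusted p = 0.00962).
The snoRNA row that was lower, ENSMUST00000158841, was at 0 in both Eµ-deficient libraries against 2.55 to 4.62 CPM in 3'RR-deficient cells, at least 14.9-fold. It met the filter on low counts only through the 3'RR-deficient libraries, so it entered because it was high there. Without NS2 70 snoRNA rows passed, where 248 of all 3921 tested rows did, and without NS1 or LPS1 no row of any class passed.

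tRNA rows that passed were concentrated in a few anticodons. Valine accounted for 12 of the 24 (8 of 11 tested genes with CAC and 4 of 7 with AAC). Glycine accounted for 6 (4 of 7 with CCC, 1 of 14 with GCC and the 1 tested with ACC). Glutamate accounted for 3 of 12 genes with CTC, aspartate for 2 of 16 and alanine for 1 of 10 with CGC. Of all tRNA genes 24 of 422 passed, and of all tested rows 3.11%. The tRNA genes of an anticodon are near-identical copies, and how reads matching several copies were assigned is not given in the sources used here. For 7 of the 24 rows another tRNA row had counts within 5% in all 6 libraries, so the number of rows overstates the number of tRNAs.
The tRNA-Gly gene chr11.tRNA205-GlyACC was at 721 and 992 CPM against 90.5, 52.3, 77.2 and 51.9 CPM (log2 difference 3.65 ± 0.48, adjusted p = 0.00962). The tRNA-Val gene chr17.tRNA391-ValCAC was at 733 and 1006 CPM against 106, 44.8, 89.9 and 79.8 CPM (log2 difference 3.43 ± 0.49, adjusted p = 0.0098). For both, each Eµ-deficient library was above every 3'RR-deficient library, and the wt libraries reached 85.5 and 130 CPM.
The most abundant copy of tRNA-Glu-CTC was at 2981 and 2501 CPM against 872, 575, 724 and 405 CPM (log2 difference 2.09 ± 0.49) and missed the threshold at adjusted p = 0.054. The most abundant tRNA-Gly-GCC copy was at 2334 and 2183 CPM against 826, 658, 580 and 706 CPM (log2 difference 1.70 ± 0.46, adjusted p = 0.092). All 20 tested glutamate genes and 27 of the 29 glycine genes lay above both 3'RR-deficient libraries in both conditions, against 17% of all tested rows, and the 2 other glycine genes, both with CCC, lay below both. As near-identical copies these genes are not independent. None of the 10 tyrosine genes, the 7 phenylalanine genes or the 17 isoleucine genes passed, with medians of -0.17, -0.09 and -0.25.

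**Figure D5:**
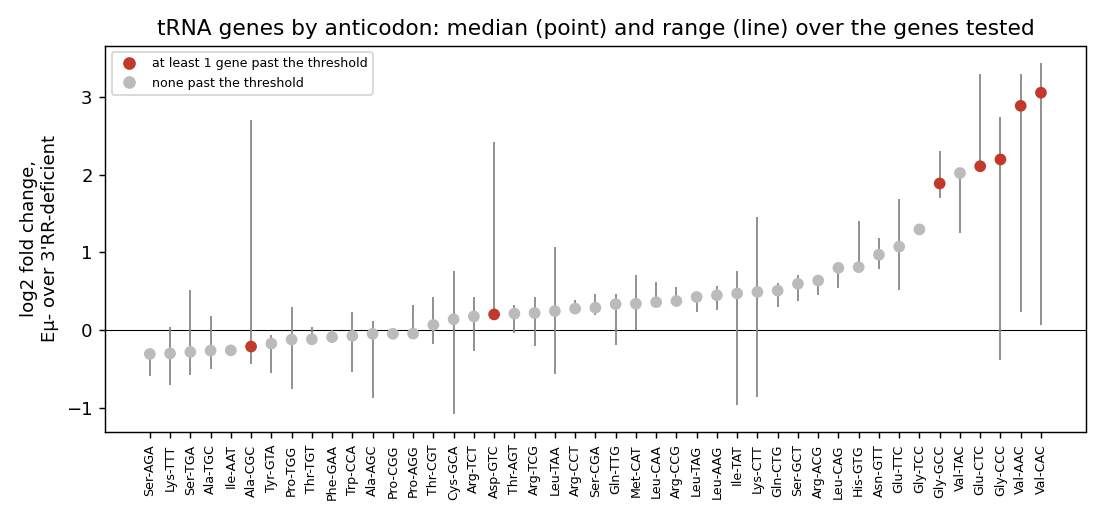
Log2 fold change (Eµ-deficient over 3'RR-deficient) of tRNA genes by anticodon, for anticodons with at least 3 tested genes; points are medians, lines run from the lowest to the highest gene, and red marks anticodons with a gene past the threshold. Val-CAC has the highest median (3.05).

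Among piRNA clusters (genome regions from a piRNA database, counted whatever the origin of the reads), 12 of 2252 were higher in Eµ-deficient cells, while the median of the class was -0.28. In both conditions 145 of the 2252 lay above and 428 below both 3'RR-deficient libraries, where all tested rows had 17% above and 13.5% below. Of the 12 that passed, 8 hold an annotated snoRNA gene on either strand, against 1.73% of all tested clusters. piRNAclusterDB_1874, which spans Snord68 on the opposite strand (chr8:123099106-123106891), was at 28312 and 6159 CPM against 924, 482, 574 and 277 CPM (log2 difference 4.66 ± 0.65, adjusted p = 0.00962). piRNAclusterDB_2006, at Kdm1a (chr4:136538204-136552912), was at 11749 and 8235 CPM against 1118, 628, 692 and 430 CPM (log2 difference 3.81 ± 0.54, adjusted p = 0.00962). Neither range overlapped, and wt stayed at or below 759 and 921 CPM.

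Among misc RNAs, Rmrp, the RNA of the RNase MRP complex that processes ribosomal RNA, was at 5674 and 1408 CPM against 731, 358, 212 and 91.8 CPM (log2 difference 3.30 ± 0.55, adjusted p = 0.0132). The unnamed transcript ENSMUST00000157750 (chr10:4567974-4568213) was at 3959 and 735 CPM against 443, 116, 81.8 and 43.4 CPM (log2 difference 3.69 ± 0.61, adjusted p = 0.0131). Rny1, a Y RNA that binds the Ro60 protein, was at 332 and 284 CPM against 81.0, 56.2, 62.3 and 56.5 CPM (log2 difference 2.26 ± 0.43, adjusted p = 0.021), and was chosen after its values were seen. Rnu7, the U7 snRNA of histone mRNA processing, was at 193 and 152 CPM against 30.6, 6.15, 28.0 and 23.5 CPM (log2 difference 2.99 ± 0.61, adjusted p = 0.0304), and missed the threshold with all 10 libraries (0.126) and with a required 2-fold change (0.0896). In all 4 the Eµ-deficient libraries lay above every 3'RR-deficient library.

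Whether the response to LPS differed between the genotypes was tested as an interaction. None of the 4081 rows (0%) passed, the smallest adjusted p was 1.00, 120 rows were below 0.05 unadjusted, and DESeq2 also called 0. The Eµ-deficient response rests on 1 library in each condition and is carried only by the spread of the 3'RR-deficient pairs. The 3 rows with the smallest p among those with at least 100 CPM were miR-143-3p and a pair of piRNA clusters. For miR-143-3p, whose values are given above, the NS libraries of 3'RR-deficient cells were far above the LPS libraries, while the Eµ-deficient libraries were close to each other (difference of log2 responses 2.96, SE 1.26, adjusted p = 1.00).
piRNAclusterDB_679 was at 12.2 and 284 CPM in Eµ-deficient cells against 25.0, 80.4, 185 and 37.6 CPM, with a difference of log2 responses of 3.48 (SE 1.56). piRNAclusterDB_1357 was at 2913 and 1145 CPM against 500, 212, 2624 and 451 CPM, with a difference of -3.46 (SE 1.67).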

How the data were processed

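Small RNA of CD43- splenic B-cells was sequenced in 10 libraries, each from cells of 2 mice (NextFlex kit, 17 PCR cycles, 75 nt reads). The values deposited by the authors are raw whole-number counts per small RNA feature and library. The submitters' processing notes name cutadapt 1.2.1, Bowtie2 and mm10. The counting program and the handling of reads matching several places are not given in the sources used here.

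The 6 Eµ-deficient and 3'RR-deficient libraries were fitted with edgeR 4.0.16 (R 4.3.3): TMM factors over all 6968 rows, filterByExpr by genotype (4081 rows kept), additive terms for stimulation and genotype, two-sided quasi-likelihood F-test, Benjamini-Hochberg adjustment, threshold 0.05. SE is the log2 fold change divided by the square root of F. CPM in the text are scaled by TMM over all 10 libraries. The difference of LPS responses was fitted with an interaction term. Shares of counts were compared by an exact permutation test within condition. Nothing in the labels says that replicate libraries came from separate experiments, so p-values measure the spread between pools, which may be technical.

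Named features had at least 100 CPM in a genotype, passed the threshold, and lay outside both 3'RR-deficient libraries in both conditions. These were the 6 largest changes in each direction among mature microRNAs and the 2 largest in each other class, with up to 3 by smallest p where fewer passed. The lymphocyte list, the switch mu hairpins and miR-5121 were named whatever their result. The members and lists were chosen with earlier results of these data known.

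Mature sequences were found in RefSeq for 1093 of 1302 rows (1085 at the same position), and 2589 of 2845 transcript IDs in GENCODE M21 (2494 at the same position). DESeq2 1.42.0, other scalings, filters, libraries and a replicate block were alternatives.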

Additional observations from a re-analysis of the deposited data

Results flagged for a closer look

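In 2 named features the Eµ-deficient library lay on opposite sides of both 3'RR-deficient libraries in NS and in LPS. piRNAclusterDB_679 was below both in NS and above both in LPS (difference of log2 responses 3.48, SE 1.56), and miR-146a-5p was above both in NS and below both in LPS (difference -1.49, SE 1.81). By edgeR's interaction test neither passed (adjusted p = 1.00 for each), and each direction rests on 1 Eµ-deficient library per condition.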

How the results depend on the processing

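The comparison over both conditions called 127 rows. It called 265 without a filter (231 higher, 34 lower), 235 with DESeq2 (204 and 31), 63 with a required 2-fold change (61 and 2), 19 in the microRNA class alone (17 and 2), 8 among mature microRNAs alone (6 and 2, chosen after seeing the data) and 6 after a GC correction of mature microRNAs (3 and 3). Leaving out each library gave 0 to 248 rows, and libraries numbered 1 alone gave 490 (355 and 135). The cause of these shifts was not tested. DESeq2 size factors, total count scaling, a 10 CPM filter and all 10 libraries kept the count within 1.5 times.

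Across conditions the replicate numbers do not pair the libraries: the differences between numbers 1 and 2 in 3'RR-deficient cells correlated at r = -0.07 between NS and LPS. Within a condition they correlated between 3'RR-deficient and wt cells (r = 0.67 in NS, 0.36 in LPS), which is a hint from the data and not from the labels. A replicate block across conditions left 0 rows (366 below 0.05 unadjusted), a block within condition 472 (327 higher, 145 lower) and the latter with all 10 libraries 324 (264 and 60). With the GC correction, the block gave 6 (3 and 3). For the difference of LPS responses, called for 0 rows, the replicate block and the unfiltered fit gave 1 each, and leaving out a library gave 0 to 3. Without an Eµ-deficient library it could not be fitted. The microRNA share difference was -18.1 percentage points, between -22.1 and -14.0 without single libraries and -18.1 without rRNA.

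Among named features only ones that had not passed changed sign. piRNAclusterDB_679 had log2 fold changes of 0.0078 without a filter, 0.32 with all 10 libraries (0.22 with the block within condition too) and 0.16 with the replicate block. miR-142a-3p had 0.0063 with total count scaling and 0.14 in the microRNA class. miR-146a-5p had -0.030 with the replicate block, -0.15 with the block within condition (-0.13 with all 10 libraries), -0.12 with libraries numbered 1 and -0.025 with the GC correction, where miR-155-5p had -0.023. Gm25747 had -0.34 with DESeq2 and Gm22175 0.052 with all 10 libraries (0.37 with the block within condition too). Leaving out libraries gave -2.12 to 1.35 for piRNAclusterDB_679, -0.44 to 3.04 for piRNAclusterDB_1357, -0.99 to 1.47 for miR-142a-3p, -0.99 to 1.02 for miR-142a-5p, -1.41 to 0.43 for miR-21a-5p, -0.46 to 1.04 for miR-146a-5p, -0.75 to 1.19 for Gm25747 and -4.32 to 0.87 for Gm22175 (1.59 and 1.30 in the microRNA class alone without NS2). The 44 named features that passed kept their direction in all 860 refits of them and stayed past the threshold in 517.

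Rows with few counts in 3'RR-deficient libraries, such as the tested chromosome 12 microRNAs, rest on 0 to 31 counts per library.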
